A study of Mus musculus with 20 samples.

Results

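The 10 genes described here encode the proteins from which stratified epithelia build a cornified envelope, and were chosen by name: Evpl, Ppl, Tgm1, Tgm3, Ivl, Lor, Flg, Sprr1a, Sprr1b and Cdsn. They were followed in outer eyecup RNA, from RPE with choroid, together with Krt12, with the question whether dietary vitamin A deficiency raises keratinization genes relative to this corneal keratin. Of the 10 genes, 9 have a row among the 24411 genes of the deposited table, and Flg was not analysed here. The 4 groups of 5 samples were WT and Stra6-/- mice, both C57BL/6, which after weaning received for 12 weeks either the vitamin A sufficient (VAS) diet with 4 IU vitamin A per g or the vitamin A deficient (VAD) diet with 0 IU per g. Per the methods of the study, both eyecups of a mouse were pooled into 1 sample, the retina was peeled off after dispase treatment, the WT mice were purchased and the knockout mice bred in house. Levels are given as normalized values, which are read counts divided by 1 size factor per library, and differences as log2 fold changes of value + 1 with Benjamini-Hochberg adjusted p-values from limma over 18807 genes. The added 1 understates changes of weakly expressed genes.

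The cornified envelope is a cross-linked protein shell that replaces the plasma membrane of dying surface cells in the epidermis. Envoplakin (Evpl) and periplakin (Ppl) form its first scaffold beneath the membrane, involucrin (Ivl), loricrin (Lor) and the small proline-rich proteins (Sprr1a, Sprr1b) are added as precursors, transglutaminases (Tgm1, Tgm3) join them by isopeptide bonds, and corneodesmosin (Cdsn) holds the cornified cells together. The healthy cornea and conjunctiva do not cornify. In vitamin A deficiency these surfaces can undergo squamous metaplasia and keratinization, the process behind xerophthalmia, and Krt12 is the keratin that marks corneal epithelium. STRA6, the product of the targeted gene, is the RPE receptor that takes up retinol from its plasma carrier.

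The precursor genes Lor, Sprr1b, Sprr1a, Ivl and Flg lie on the same chromosome in the epidermal differentiation complex. The 150 bases upstream of the start sites of the 4 measured ones are shown because these neighbours differed in how they changed. They are from RefSeq, on the minus strand of GRCm38.p6, at chr3:92485882-92486031 for Sprr1a, chr3:92438780-92438929 for Sprr1b, chr3:92573736-92573885 for Ivl and chr3:92083143-92083292 for Lor, written 5′ to 3′ with the last base next to the start site. Capitals mark TGACTCA or its reverse complement TGAGTCA, the letters that AP-1 factors are known to bind, and TATAAA on the strand of the gene.
Sprr1a: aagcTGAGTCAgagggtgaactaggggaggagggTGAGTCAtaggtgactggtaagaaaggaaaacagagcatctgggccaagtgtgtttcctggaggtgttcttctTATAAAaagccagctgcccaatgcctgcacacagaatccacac
Sprr1b: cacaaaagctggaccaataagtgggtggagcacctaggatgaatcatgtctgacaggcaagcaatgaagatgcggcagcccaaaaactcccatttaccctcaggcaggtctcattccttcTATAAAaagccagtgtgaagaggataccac
Ivl: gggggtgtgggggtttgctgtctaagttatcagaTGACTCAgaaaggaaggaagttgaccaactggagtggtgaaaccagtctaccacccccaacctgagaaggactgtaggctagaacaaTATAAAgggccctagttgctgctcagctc
Lor: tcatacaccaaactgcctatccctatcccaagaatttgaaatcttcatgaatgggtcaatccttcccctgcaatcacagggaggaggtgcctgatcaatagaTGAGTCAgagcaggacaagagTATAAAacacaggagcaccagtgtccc
TGACTCA or TGAGTCA, searched over 250 bases upstream of the start site, began 146 and 116 bases upstream of Sprr1a, 116 bases upstream of Ivl and 48 bases upstream of Lor, and was not among the letters of the Sprr1b window. Of 32851 mouse promoter entries of the same length, 4.46% hold it. TATAAA was found upstream of all 4 genes, against 7.59% of the promoter entries. AGGTCA or its reverse complement TGACCT, the core letters bound by retinoic acid receptors, was found upstream of Tgm3, Ivl and Tgm1, against 14.0% of the entries. An entry was found for 8 of the 10 genes, Evpl and Ppl being without one. A match of letters is a description of the sequence and not a measured site.

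Some libraries differed from the others in ways that their labels do not state. From 13331903 to 21878614 reads were behind each library. On the VAS diet, Stra6 averaged 2591 ± 149 (n = 5, SD) normalized units in WT and 629 ± 49.8 (n = 5, SD) in Stra6-/-. On the VAD diet it averaged 986 ± 415 (n = 5, SD) in WT and 2163 ± 154 (n = 5, SD) where the label is Stra6-/-. The RPE gene Rpe65 averaged 4178 in VAS WT, 5824 in VAS Stra6-/-, 2402 in VAD WT and 44337 where the label is VAD Stra6-/-. Stra6 is an RPE gene, so its normalized value depends on the RPE share of a library. Its value alone does not decide whether the label holds. Set against the Rpe65 mean of the same group, the Stra6 mean was lowest in the libraries labelled VAD Stra6-/-. It was next lowest in VAS Stra6-/- and higher in both WT groups. Whether the labels hold was not tested. Replicates 2 and 4 of VAD WT stood apart from replicates 1, 3 and 5. Sex also differed between groups: the X-inactivation transcript Xist was at most 38.4 in VAS WT and at least 15320 in VAS Stra6-/-, the Y-linked gene Ddx3y was at least 981 in VAS WT and at most 1.02 in VAS Stra6-/-, both were present in every library labelled VAD Stra6-/-, and in VAD WT Xist was 174, 10912, 194, 11767 and 234 in replicates 1 to 5. On the VAS diet the effect of genotype therefore cannot be told apart from that of sex. In VAD WT the replicates with high Xist, 2 and 4, were those that stood apart. The comparisons by diet in either genotype, by genotype on VAD and the interaction also set groups with different Xist or Ddx3y values against each other. The part of sex in them was not tested by itself. Fits without replicates 2 and 4 of VAD WT, given below, leave Xist at 234 or less in both WT groups. These replicates also stood apart in other genes, so sex cannot be told apart from other differences in such fits.

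Corneal and other surface epithelium transcripts were abundant in these outer eyecup libraries. The summed normalized value of 6 cornea genes (Krt12, Aldh3a1, Slurp1, Lypd2, Upk1b and Tkt) was between 317913 and 418950 in VAS WT and between 538289 and 563744 in VAS Stra6-/-. In VAD WT it was 832313, 248598, 804518, 245279, 814751 in replicates 1 to 5, so replicates 2 and 4 were below all VAS WT libraries and the other 3 above them. In the libraries labelled VAD Stra6-/- it was between 16842 and 22328. The summed value of 10 RPE genes was highest in the latter, from 558100 to 602951, against 133153 to 149923 in VAS WT and 42576 to 86606 in VAD WT. In bulk tissue, fewer epithelial cells and less RNA per epithelial cell cannot be told apart, and the part of either in the results below was not tested. None of the genes of these lists was at 0 in all 5 libraries of a group.

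**Figure D1:**
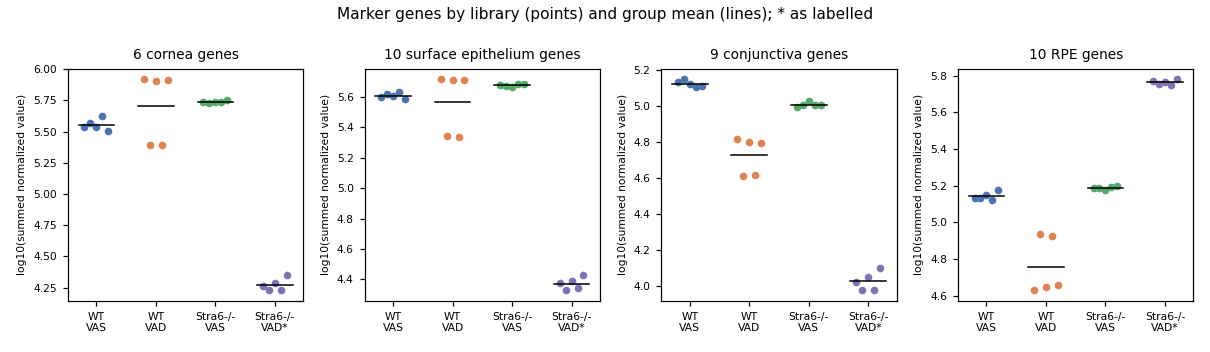
Summed normalized values (log10 axes) of the cornea, surface epithelium, conjunctiva and RPE genes, 1 point per library in replicate order and a line at each group mean of the log10 values. Replicates 2 and 4 of VAD WT lie apart in all 4 panels, and the libraries labelled VAD Stra6-/- (marked *) have the lowest sums of the first 3 lists and the highest RPE sums.

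The envelope genes were expressed at very different levels. Per kilobase of exon, the mean normalized value in VAS WT was 2330 for Evpl and 1722 for Ppl, 352 for Sprr1a, 307 for Tgm1, 41.1 for Ivl, 17.5 for Lor, 6.11 for Cdsn and 0.797 for Tgm3, and Sprr1b was at 0 in all 5 libraries. The scaffold genes Evpl and Ppl together made up from 94.0% to 95.6% of the summed value of the 9 genes in VAS WT, whereas Krt12 alone stood at 89097 per kilobase. Tgm3, the transglutaminase of terminal cornification, had at most 12 reads in any library, so that a change of its low level was not detectable at this depth. The epidermal keratins Krt1 and Krt10, which mark skin-type differentiation, had normalized values of 98.2 ± 22.5 (n = 5, SD) and 118 ± 18.2 (n = 5, SD) in VAS WT.

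In WT mice none of the 9 genes differed by diet at an adjusted p under 0.05 (limma), where 8.78% of all genes tested passed. At an unadjusted p under 0.05 there were 2, Cdsn and Sprr1a, a share near the 21.8% of all genes, and edgeR and DESeq2 on recovered reads called 1 each, Cdsn. Corneodesmosin transcripts had the lowest p of the 9. The normalized value of Cdsn was 18.7, 13.5, 21.4, 6.83 and 21.4 in VAS WT and 43.6, 58.7, 28.4, 23.1 and 50.7 in VAD WT, in replicates 1 to 5. All 5 VAD libraries were above all 5 VAS libraries, as was the case for 2.13% of all genes. The means differed 2.5-fold, with a log2 fold change of 1.29 ± 0.42 (SE, limma, adjusted p = 0.062).

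For Sprr1a, a small proline-rich precursor, the mean was lower on the deficient diet in WT mice. Its normalized value was 243, 294, 264, 324 and 295 in VAS WT and 279, 165, 236, 93.3 and 313 in VAD WT, and the groups overlapped in replicates 1 and 5 of VAD WT. The log2 fold change was -0.50 ± 0.22 (SE, limma, adjusted p = 0.181), which did not pass the test.

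The scaffold genes had means near each other on both diets but a wide spread on the deficient diet. Evpl was 14847, 16153, 14449, 15705 and 13216 in VAS WT and 19163, 8200.3, 18005, 8449 and 19353 in VAD WT. Ppl was 12327, 12444, 11551, 12566 and 10471 in VAS WT and 17073, 8132, 15609, 7858 and 16643 in VAD WT. For both genes replicates 2 and 4 of VAD WT lay below every VAS library and the other 3 above every one, the same split as in the cornea genes. The log2 fold changes were -0.13 ± 0.19 (SE, limma, adjusted p = 0.761) for Evpl and 0.06 ± 0.17 (SE, limma, adjusted p = 0.896) for Ppl. Without replicates 2 and 4 of VAD WT, the ones with high Xist, 3 genes were higher on the deficient diet, Cdsn, Evpl and Ppl. Of all genes 17.6% were higher in that fit. The log2 fold change of Evpl was then 0.34 and that of Ppl 0.47.

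The remaining genes were not called by diet in WT mice. Tgm1, the membrane-bound transglutaminase of keratinocytes, was 857, 1050.4, 895, 980.5 and 1076 in VAS WT and 1074, 837, 958, 804 and 931 in VAD WT, with overlapping groups and a log2 fold change of -0.08 ± 0.09 (SE, limma, adjusted p = 0.645). Involucrin transcripts were 95.2, 71.1, 78.8, 57.6 and 91.9 in VAS WT and 152, 35.0, 213, 50.5 and 108 in VAD WT, with replicates 1, 3 and 5 above and replicates 2 and 4 below all VAS libraries. Lor, the main precursor of the epidermal envelope, had 31.1 ± 11.4 (n = 5, SD) in VAS WT and 31.7 ± 11.2 (n = 5, SD) in VAD WT. The log2 fold changes were 0.23 ± 0.61 (SE, limma, adjusted p = 0.878) for Ivl and 0.02 ± 0.42 (SE, limma, adjusted p = 0.994) for Lor. Sprr1b was at 0 in all 10 WT libraries, which with a floor of 3 reads per library allows a mean normalized value of up to 2.87 in VAS WT and 3.47 in VAD WT.

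**Figure D2:**
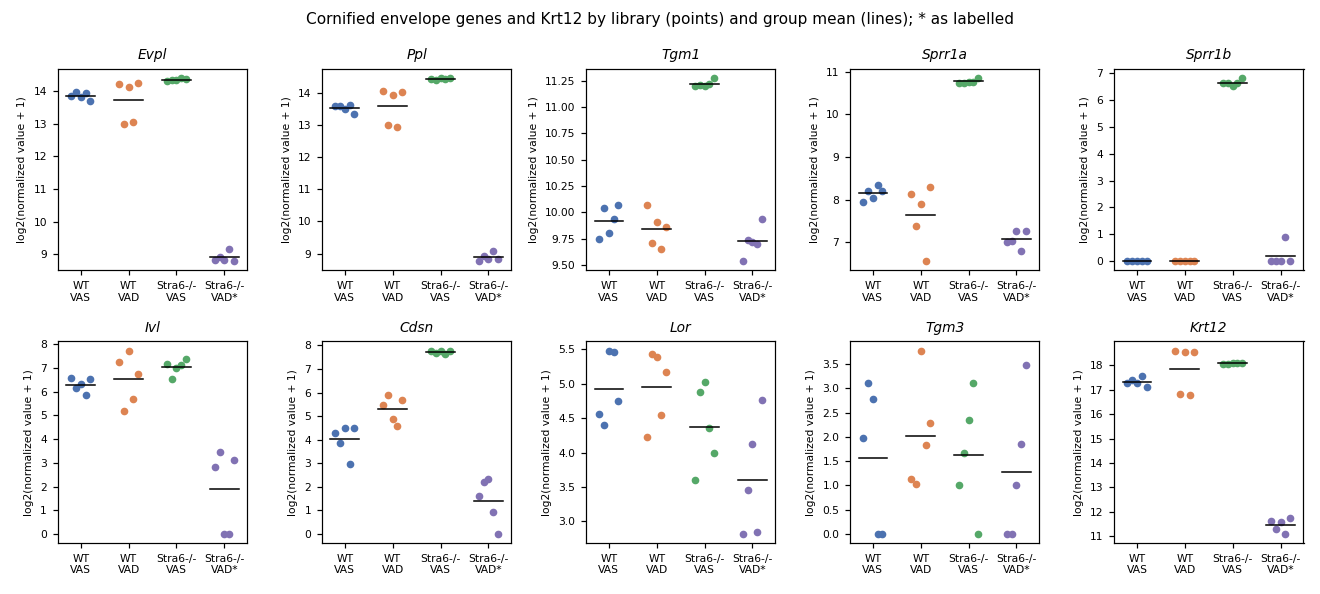
Log2(normalized value + 1) of 9 cornified envelope genes and Krt12, 1 point per library in replicate order and a line at each group mean of the log2 values, each panel with an axis of its own. The VAS Stra6-/- libraries lie highest for Evpl, Ppl, Tgm1, Sprr1a, Sprr1b and Cdsn, and those labelled VAD Stra6-/- (marked *) lie lowest for Evpl, Ppl, Cdsn, Ivl and Krt12.

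Krt12, the reference of the question, was itself not steady between the WT groups. Its normalized value was 157795, 172162, 157376, 194875 and 142834 in VAS WT and 400653, 114762, 381262, 113908 and 384665 in VAD WT, again with replicates 2 and 4 low and the other 3 high. The log2 fold change was 0.54 ± 0.30 (SE, limma, adjusted p = 0.32). Dividing by Krt12 therefore shifted all genes: the median log2 fold change over 18806 genes was -0.54 on the Krt12 scale against 0.00 before, and differences below are to be read against that shift.

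Relative to Krt12, no envelope gene was higher on the deficient diet in WT mice and 1 of 9 was lower, Sprr1a, while 0.016% of all genes were called higher and 2.45% lower. Per 10000 units of Krt12, Sprr1a had 15.4, 17.1, 16.7, 16.6 and 20.6 units in VAS WT and 6.97, 14.4, 6.18, 8.19 and 8.14 in VAD WT. Every VAD library was below every VAS library, and the log2 ratio differed by -1.04 ± 0.23 (SE, limma, adjusted p = 0.0151). Sprr1a was the gene with the lowest ratio difference of the 9, and it exceeded the median shift of all genes. For Evpl the ratio was 941, 938, 918, 806 and 925 in VAS WT and 478, 715, 472, 742 and 503 in VAD WT per 10000 units of Krt12, also without overlap, as for 3.18% of all genes. The log2 ratio of Evpl differed by -0.67 ± 0.21 (SE, limma, adjusted p = 0.0928), and that of Ppl by -0.48 ± 0.21 (SE, limma, adjusted p = 0.212), which did not pass in limma.

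Each ratio was also tested by itself with an exact permutation test, two-sided, whose smallest p for 5 against 5 libraries is 0.00794. That value was reached by Sprr1a and Evpl, and Ppl had an exact p of 0.0476, all of them lower on the deficient diet. Only the 9 genes were tested in this way, without adjustment, so no share of all genes stands beside these values. The median shift of all genes on this scale was -0.54, and the differences of -0.67 for Evpl and -0.48 for Ppl lay near it. Cdsn had 1.18, 0.781, 1.36, 0.35 and 1.5 units per 10000 of Krt12 in VAS WT and 1.09, 5.12, 0.744, 2.03 and 1.318 in VAD WT, where replicates 2 and 4 were the highest and the other 3 lay within the VAS range. Its log2 ratio differed by 0.75 with an exact permutation p of 0.278. Tgm1, Ivl and Lor had log2 ratio differences of -0.62, -0.31 and -0.52, none of which passed either test.

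The outcome on this scale rested on the reference and on 2 libraries. Relative to the other cornea genes Sprr1a was again the only one of the 9 called, lower as were 2.05% of all genes. Without replicates 2 and 4 of VAD WT, 6 of 9 genes were lower relative to Krt12 (Evpl, Ppl, Sprr1a, Sprr1b, Tgm1 and Lor), but so were 81.8% of all genes, and Sprr1b, at 0 in both groups, is among them through Krt12 alone. Relative to Krt5, the basal keratin of all surface epithelium, and relative to a list of 10 surface epithelium genes, none of the 9 was called in either direction. Relative to 9 conjunctiva genes, a set with the keratins Krt4 and Krt13, 6 genes were higher (Cdsn, Evpl, Ppl, Tgm1, Lor and Sprr1b), as were 73.8% of all genes. Of the conjunctiva genes themselves 6 of 9 were lower on the deficient diet, where 5.5% of all genes were lower. Among them was Krt4 at 41283 ± 2014 (n = 5, SD) in VAS WT and 11146 ± 606 (n = 5, SD) in VAD WT.

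**Figure D3:**
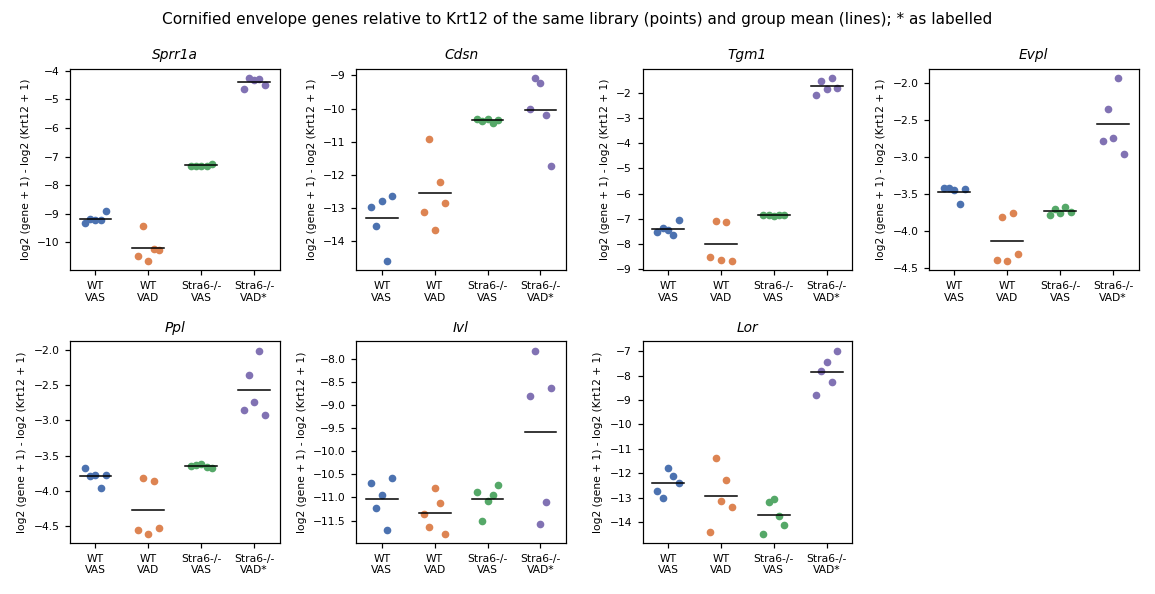
Difference between log2(value + 1) of each gene and of Krt12 in the same library, 1 point per library in replicate order and a line at each group mean, each panel with an axis of its own. Sprr1a lies lower in VAD WT than in VAS WT, Sprr1a and Cdsn lie higher in VAS Stra6-/- than in VAS WT, and all 7 genes have their highest mean in the libraries labelled VAD Stra6-/- (marked *), where Krt12 was nearly lost.

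On the sufficient diet, loss of Stra6 went with higher envelope transcripts. In VAS Stra6-/- mice 5 of 9 genes were higher than in VAS WT and none was lower, where 26.6% of all genes passed the test and 15.9% were higher. The 5 were the precursors Sprr1a and Sprr1b, the transglutaminase Tgm1, the scaffold gene Ppl and Cdsn. These were also the libraries that differed in sex from VAS WT.

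Both small proline-rich genes were higher. Sprr1a was 1714, 1709.8, 1742, 1729 and 1852 in VAS Stra6-/-, every library far above the VAS WT range of 243 to 324. The means differed 6.16-fold, with a log2 fold change of 2.63 ± 0.22 (SE, limma, adjusted p = 2.26e-08). Its paralog Sprr1b was 98.5, 98.8, 91.5, 98.0 and 113 in VAS Stra6-/- and 0 in all VAS WT libraries. It passed the filter on low values through VAS Stra6-/- alone, with 1 read in the other 15 libraries, so that its calls against this group are descriptions, and 4 of the other 8 genes were higher. With the floor of 3 reads per library in VAS WT, Sprr1b was at least 34.9-fold higher. The transcripts of both genes are 74.5% identical over 765 aligned bases and share no run of 50 bases, which bears on how far reads could be assigned to the wrong copy.

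Corneodesmosin and the transglutaminase were higher as well. Cdsn was 215, 203, 217, 199 and 219 in VAS Stra6-/-, against 16.4 ± 6.24 (n = 5, SD) in VAS WT, a 12.9-fold difference of the means and a log2 fold change of 3.71 ± 0.42 (SE, limma, adjusted p = 1.29e-06). Tgm1 was 2350.5, 2368, 2357, 2380.0 and 2481 in VAS Stra6-/-, against 972 ± 95 (n = 5, SD) in VAS WT, with a log2 fold change of 1.30 ± 0.09 (SE, limma, adjusted p = 6.58e-10). Neither gene had overlapping groups, and within VAS Stra6-/- both varied little between libraries.

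The scaffold genes differed by less. Ppl was 22123, 21816, 22674, 22067 and 22309 in VAS Stra6-/-, with a log2 fold change against VAS WT of 0.91 ± 0.17 (SE, limma, adjusted p = 0.000441). Evpl was 20069, 20927, 20586, 21727 and 21154 in VAS Stra6-/-, all above the highest VAS WT library, but its log2 fold change of 0.49 ± 0.19 (SE, limma, adjusted p = 0.0654) did not pass. Evpl passed with a fit of the 2 groups alone, as did Ivl, and Evpl passed also without replicates 2 and 4 of VAD WT, whose spread enters the fit of all 4 groups. In all, 6 of 9 genes were higher without overlap between the groups, as were 19.3% of all genes. Ivl was 144, 92.2, 127, 141 and 167 in VAS Stra6-/- with a log2 fold change of 0.76 ± 0.61 (SE, limma, adjusted p = 0.403), and Lor was 11.2, 28.5, 31.5, 19.4 and 15.0 with -0.56 ± 0.42 (SE, limma, adjusted p = 0.369). Tgm3 stayed at 9 reads or fewer in both groups.

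Relative to Krt12, 3 of 9 genes remained higher in VAS Stra6-/- than in VAS WT, Sprr1a, Sprr1b and Cdsn, where 0.399% of all genes were called higher and 28.7% lower. The call of Sprr1b is a description, since it passed the filter on low values through VAS Stra6-/- alone. Sprr1a had 62.1, 62.9, 62.6, 62.1 and 65.3 units per 10000 of Krt12 in VAS Stra6-/-, and the log2 ratio differed by 1.87 ± 0.23 (SE, limma, adjusted p = 2.14e-05) from VAS WT. Cdsn had 7.80, 7.47, 7.78, 7.16 and 7.73 units, and its log2 ratio differed by 2.95 ± 0.54 (SE, limma, adjusted p = 0.000801). These 3 genes were higher also relative to Krt5, where 0.92% of all genes were higher and 18% lower. The same held relative to the surface epithelium genes (1.12% and 47.3%) and to the conjunctiva genes (9.01% and 0.771%). On each of these scales Tgm1 and Ppl were higher too, and Lor was lower relative to the surface epithelium genes. Relative to the other cornea genes, Sprr1a, Sprr1b and Cdsn were higher and Tgm1 and Ppl were not called. There 0.33% of all genes were higher and 1.74% lower. With the exact permutation test on each ratio, Tgm1 (0.54) and Ppl (0.15) were higher and Lor (-1.316) and Evpl (-0.27) lower on the log2 scale, each at the smallest possible p of 0.00794. That test was run on the 9 genes only, so no share of all genes is given. The median log2 ratio difference of all genes was -0.74.

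In the libraries labelled VAD Stra6-/-, 7 of 9 envelope genes were lower than in VAS Stra6-/- and none was higher, where 53.2% of all genes passed and 28.8% were lower. Of the 7, Sprr1b passed the filter on low values through VAS Stra6-/- alone, so its call is a description. Evpl was 454, 486, 452, 573 and 442 and Ppl 434, 483, 452, 541 and 453, both far below the VAS Stra6-/- range. The means of Evpl differed 43.4-fold, a log2 fold change of -5.44 ± 0.19 (SE, limma, adjusted p = 1.23e-15), and those of Ppl 47.0-fold, a log2 fold change of -5.55 ± 0.17 (SE, limma, adjusted p = 1.4e-16). Cdsn was 2.02, 3.61, 4.09, 0.878 and 0 and Ivl 6.05, 9.92, 0, 0 and 7.61, near the limit of detection, with log2 fold changes of -6.31 ± 0.42 (SE, limma, adjusted p = 3.7e-11) and -5.18 ± 0.61 (SE, limma, adjusted p = 2.56e-07). Sprr1b had 1 read in the 5 libraries together, and its ratio of VAS Stra6-/- to these libraries was 541 with an exact 95% interval from 96.7 to 21409 that covers counting error only.

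Tgm1 and Sprr1a fell by less than the other called genes. Tgm1 was 743, 852, 839, 829.5 and 980.0, with a log2 fold change against VAS Stra6-/- of -1.5 ± 0.09 (SE, limma, adjusted p = 3e-12). Sprr1a was 127, 129.9, 151, 109.7 and 153, with a log2 fold change of -3.70 ± 0.22 (SE, limma, adjusted p = 5.23e-12). Lor was 6.05, 9.92, 16.4, 6.14 and 26.2 and overlapped with VAS Stra6-/-, with a log2 fold change of -0.78 ± 0.42 (SE, limma, adjusted p = 0.129). Krt12 was 3140.4, 2472, 3029.8, 2179 and 3433 in these libraries, a 97.4-fold difference of the means from VAS Stra6-/-, and the cornea list moved with the envelope genes, 6 of its 6 genes being lower.

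Against VAD WT, the libraries labelled VAD Stra6-/- had 6 of 9 genes lower and none higher, where 55.9% of all genes passed and 29.6% were lower. The 6 were Evpl (-4.82 ± 0.19 (SE, limma, adjusted p = 1.27e-14)), Ppl (-4.71 ± 0.17 (SE, limma, adjusted p = 2.79e-15)), Ivl (-4.65 ± 0.61 (SE, limma, adjusted p = 1.18e-06)), Cdsn (-3.90 ± 0.42 (SE, limma, adjusted p = 7.73e-08)), Lor (-1.36 ± 0.42 (SE, limma, adjusted p = 0.00886)) and Sprr1a (-0.58 ± 0.22 (SE, limma, adjusted p = 0.0289)), as log2 fold changes. Tgm1 differed by -0.12 ± 0.09 (SE, limma, adjusted p = 0.267), so that it stood near the same level in VAD WT as in these libraries while Evpl differed 30.4-fold. The result for Sprr1a rested on single libraries: without replicate 1, 3 or 5 of VAD WT, or replicate 1, 2 or 4 of those labelled VAD Stra6-/-, its adjusted p (limma) rose above 0.05.

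Ratios to Krt12 in these libraries carry little information on single genes. Relative to Krt12, 7 of 9 envelope genes were higher than in VAS Stra6-/- and 9 of 9 higher than in VAD WT, but 99.6% and 99.7% of all genes were higher as well, since Krt12 itself fell 97.4-fold and 97.9-fold. Relative to Krt5 instead, 4 genes were higher (Lor, Sprr1a, Tgm1 and Tgm3) and 3 lower (Cdsn, Ppl and Sprr1b) than in VAS Stra6-/-, where 98.3% of all genes were higher and 0.319% lower.

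**Figure D4:**
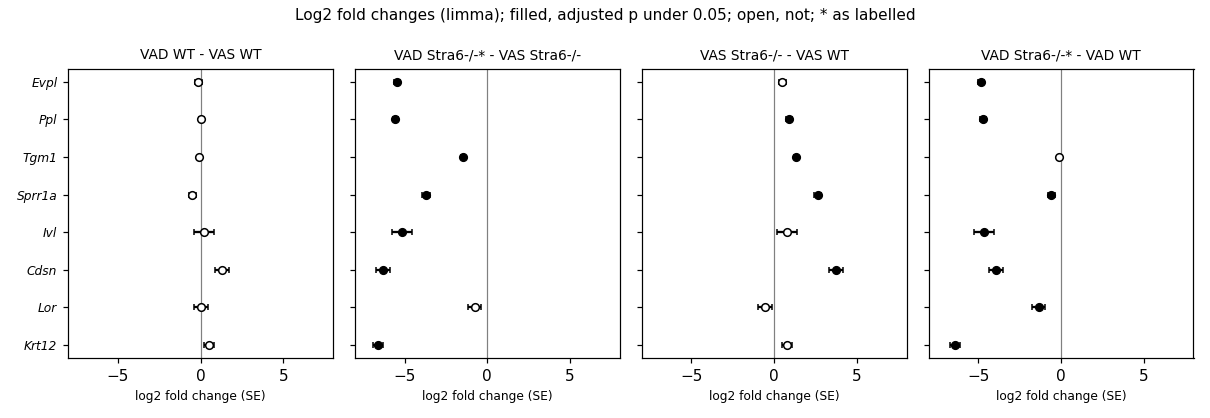
Log2 fold changes (limma) of 7 envelope genes and Krt12 in the 4 comparisons, with bars of 1 standard error and filled points for an adjusted p under 0.05. No gene passes by diet in WT, 4 of these 7 are higher in VAS Stra6-/- than in VAS WT, and the panels that use the libraries labelled VAD Stra6-/- (marked *) have Evpl, Ppl, Ivl, Cdsn and Krt12 far below 0, with Tgm1 near 0 against VAD WT.

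The effect of diet differed between the genotypes as labelled for 7 of 9 genes, all with a more negative diet effect in Stra6-/-, where 44.2% of all genes passed the interaction test and 24.8% in that direction. The difference of the 2 diet effects was -7.60 for Cdsn, -5.61 for Ppl, -5.41 for Ivl, -5.31 for Evpl, -3.21 for Sprr1a and -1.42 for Tgm1 on the log2 scale, and Sprr1b passed as well (adjusted p in limma between 1.14e-13 and 2.42e-05). Sprr1b passed the filter on low values through VAS Stra6-/- alone, so its call here is a description. Lor and Tgm3 did not pass. Since the 4 comparisons share groups, their results are not independent of each other.

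Other genes of cornification were measured as a wider list. Of 67 further genes (epidermal keratins, late envelope and small proline-rich proteins, proteases and lipid-barrier enzymes), 66 have a row and 41 were tested. By diet in WT mice none was higher and 6 were lower, where 3.29% of all genes were higher and 5.5% lower. The median log2 fold change was 0.00, as over all genes. Among the 6 were Krt16, a keratin of activated keratinocytes, with 974 ± 122 (n = 5, SD) in VAS WT and 309.9 ± 164 (n = 5, SD) in VAD WT and a log2 fold change of -1.80 ± 0.23 (SE, limma, adjusted p = 1.44e-05), and Sprr2a1 and Sprr2a2, which have identical values in all 20 libraries and count as a single measurement. In VAS Stra6-/- 10 of 41 were higher than in VAS WT and none lower, with a median of 0.45 against 0.02 over all genes. Of all genes 15.9% were higher and 10.8% lower. Krt16 at 6259 ± 293 (n = 5, SD) had a log2 fold change of 2.69 ± 0.23 (SE, limma, adjusted p = 2.4e-08), and Cnfn, the envelope protein cornifelin, rose from a mean of 26.2 to 308, with 4.25 ± 0.78 (SE, limma, adjusted p = 0.000322). In the libraries labelled VAD Stra6-/- 30 of 41 were lower than in VAS Stra6-/- and none higher, among them Casp14, the caspase of cornification, with -5.99 ± 0.46 (SE, limma, adjusted p = 4.02e-10). Of all genes 28.8% were lower and 24.4% higher in these libraries. Against VAD WT, 23 of 41 were lower in these libraries and 2 higher, Tchh (0.97 ± 0.27 (SE, limma, adjusted p = 0.0037)), the gene of trichohyalin, and Krt16 (0.59 ± 0.23 (SE, limma, adjusted p = 0.0315)). Of all genes 29.6% were lower and 26.2% higher in that comparison. Krt1 and Krt10 did not pass by diet in WT or by genotype on the sufficient diet.

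Regulators of keratinocyte differentiation were measured as a list of 16 genes, transcription factors apart from the kinase gene Ripk4. By diet in WT mice their median log2 fold change was 0.00, and 2 were higher and 2 lower, against 3.29% and 5.5% of all genes. Among them Junb, a subunit of AP-1, rose by 0.42 ± 0.11 (SE, limma, adjusted p = 0.0206), whereas Barx2 (-0.97 ± 0.13 (SE, limma, adjusted p = 4.2e-05)) and Prdm1 (-0.79 ± 0.13 (SE, limma, adjusted p = 0.000426)) were lower. In VAS Stra6-/- 12 of 16 were higher than in VAS WT and 1 lower, with a median of 0.89, where 15.9% of all genes were higher and 10.8% lower. Fosl1, another AP-1 subunit, was 5.89, 0, 0, 0 and 0 in VAS WT and 222, 237, 240.0, 215 and 256 in VAS Stra6-/-, on the log2 scale a difference of 7.32 ± 0.81 (SE, limma, adjusted p = 9.26e-07). Klf4, a factor of barrier formation, rose with 1.46 ± 0.20 (SE, limma, adjusted p = 1.04e-05) and Junb with 1.33 ± 0.11 (SE, limma, adjusted p = 2.91e-08). In the libraries labelled VAD Stra6-/- 14 of 16 were lower than in VAS Stra6-/-, led by Grhl2, Grhl3 and Trp63, the last the p63 gene of stratified epithelium, with log2 fold changes of -6.61, -5.82 and -5.46. Of all genes 28.8% were lower in that comparison.

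Among 6 targets of retinoic acid, 2 were lower by diet in WT mice, among them Dhrs3 (-0.32 ± 0.07 (SE, limma, adjusted p = 0.00267)), and 3 were lower in VAS Stra6-/- than in VAS WT, among them Cyp26a1, which degrades retinoic acid, with -2.18 ± 0.55 (SE, limma, adjusted p = 0.00502). In the libraries labelled VAD Stra6-/- 3 of 6 were higher and 1 lower than in VAS Stra6-/-, where 24.4% of all genes were higher and 28.8% lower. Cyp26a1 was among the higher, with 2.49 ± 0.55 (SE, limma, adjusted p = 0.00057). Against VAD WT, 4 of 6 were higher in these libraries and 0 lower, where 26.2% of all genes were higher and 29.6% lower. Of all genes 5.5% were lower by diet in WT and 10.8% by genotype on VAS.

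Markers of other tissues moved between the groups as well, and their part in the envelope results was not tested. Between VAS Stra6-/- and VAS WT none of 6 cornea genes passed, 6 of 10 surface epithelium genes were higher and 1 lower, 4 of 9 conjunctiva genes were lower, and 6 of 6 skeletal muscle genes were higher with a median log2 fold change of 1.45. The summed value of the muscle genes ranged from 8108 to 9680 in VAS WT and from 21395 to 24165 in VAS Stra6-/-. By diet in WT, 6 of 9 conjunctiva genes, 8 of 10 RPE genes and 2 of 6 muscle genes were lower, 4 of 6 sclera and stroma genes were higher, and no cornea or retina gene passed. In the libraries labelled VAD Stra6-/-, 10 of 10 surface epithelium genes and 5 of 6 retina genes were lower than in VAS Stra6-/-, and 9 of 10 RPE genes and 6 of 6 sclera and stroma genes were higher. The shares of all genes called higher and lower were 15.9% and 10.8% by genotype on VAS and 3.29% and 5.5% by diet in WT. By diet in Stra6-/- as labelled they were 24.4% and 28.8%.

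The pattern over the 20 libraries was compared with that of 15544 genes by the root mean square difference of the centred log2 profiles, as a description. Evpl was nearest to Trim29 (0.16), Ppl (0.16) and Cldn7 (0.19), and Ppl to the desmosomal genes Dsc3 (0.14) and Dsg1a (0.16) and to Evpl. Krt12 was at rank 182 for Evpl and 202 for Ppl. Tgm1 was nearest to Slc38a2 (0.14), Ppp1r10 (0.15) and Igsf3 (0.19), with Krt12 at rank 15492, so the scaffold genes lay near the cornea keratin in this order and Tgm1 far from it. Sprr1a was nearest to Myh3 (0.41), a muscle myosin, Bcl3 (0.57) and Pthlh (0.59), with Krt12 at rank 15148, and Cdsn to Hspa1b (0.77), E2f7 (0.84) and Rel (0.95), with Krt12 at rank 499. Ivl was nearest to Ly6g6e (0.59), Cyp3a13 (0.62) and Pbp2 (0.64), and Lor to Rab33a (0.48), Susd3 (0.49) and Adrbk2 (0.52). For Sprr1b, at or near 0 in 15 libraries, the nearest gene was Krt16 at 1.48.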

How the data were processed

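RNA-seq of 20 outer eyecup samples was used, grouped by the labels. Per the submitters' processing notes and the methods of the study, reads were aligned with STAR 2.5.3a to GRCm38 and counted per gene with RSEM 1.2.30, and DESeq2 1.32.0 was used. The signal deposited by the authors is, as its values show, the gene count divided by 1 size factor per sample. In 19 libraries whole reads were recovered (100% of values within a tolerance of 0.001). In the first VAD Stra6-/- library, as labelled, 100% of values met this tolerance as well, but recovery was not claimed. The tests on counts leave it out, while reads given for libraries and single genes include it.

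Genes with at least 5 reads in all were kept. Normalized values need a test on the log scale, so limma 3.58.1 (R 4.3.3) replaced the planned edgeR, on log2(value + 1), with 4 group means, a trend and all 20 libraries. For the ratios, log2(Krt12 + 1) was subtracted from every gene per library. Calls are at an adjusted p under 0.05. The alternatives were edgeR 4.0.16 and DESeq2 1.42.0 on the recovered reads, TMM factors, pseudocounts of 0.5 and 4, other filters, other references, a replicate block and leaving out libraries. Intervals and floors (3 reads) cover counting error only, as does the depth of 13331903 to 21878614 reads per library. The labels number the replicates and name no mouse, litter or batch. That each library is a separate mouse is taken from the study and was not tested. Both Xist and Ddx3y were present in every library labelled VAD Stra6-/-, whereas in VAS WT and VAS Stra6-/- they were not both high. Whether the former libraries hold RNA of more than a single mouse was not tested, and their spread and p-values take each as a single mouse.

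The genes and lists were chosen with earlier results of these data known, so their counts are descriptions. Named were all envelope genes, Krt12 and Stra6, and from each other list the 3 genes of each comparison and direction that were called with the largest log2 fold changes and have a mean of at least 10 in a group. Krt1, Krt5, Krt10 and Fosl1 were named beside a result, and Xist, Ddx3y and Rpe65 for the check of libraries. Exon lengths were taken from GENCODE vM21 and promoters from RefSeq. The fits were tested on simulated data. Some genes counted in these lists are not reported here by name.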

Additional observations from a re-analysis of the deposited data

Results flagged for a closer look

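The effect of diet differed between WT and the mice labelled Stra6-/- in the interaction test (limma) for 7 envelope genes and Krt12. On the log2 scale, the diet effect in Stra6-/- minus that in WT was -7.60 for Cdsn, -7.16 for Krt12, -6.47 for Sprr1b, -5.61 for Ppl, -5.41 for Ivl, -5.31 for Evpl, -3.21 for Sprr1a and -1.42 for Tgm1. The value of Sprr1b depends on the added 1, since it was at 0 in all WT libraries, and edgeR did not call it. All 8 values rest on the libraries labelled VAD Stra6-/-, in which Stra6 was higher than in VAS Stra6-/- and the RPE genes had their highest sums.

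In 5 of 40 sets of a gene and a group, 1 library lay far from the other 4, with its gap to the nearest over the range of the group above 0.71. Chance gives about 1 in 20 such sets. The ratio was 0.773 for Tgm1 and 0.775 for Sprr1a in VAS Stra6-/-, in both by the highest library (2481 and 1852), 0.756 for Tgm3 in VAD WT, 0.740 for Tgm3 and 1 for Sprr1b in the libraries labelled VAD Stra6-/-. The sets of Tgm3 and Sprr1b hold at most 12 reads per library.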

How the results depend on the processing

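Of the counts of envelope genes called, that by diet in WT was the least stable. It was 0 and became 1, Cdsn, with a pseudocount of 4, with edgeR, with DESeq2 and in a fit without the libraries labelled VAD Stra6-/- (this fit was chosen after seeing the data), and 3 without both replicates 2 and 4 of VAD WT. Leaving out each library in turn gave 0 to 1, with 1 without replicate 4 of VAD WT or replicate 5 of those labelled VAD Stra6-/-. By genotype on VAS the count was 5, and 3 with a log2 fold change beyond 2 as well (chosen after seeing the data). The other counts of genes called on the value scale stayed within 1.5 times.

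Relative to Krt12, the count by diet in WT was 1. It was 0 with the 2 groups alone, relative to Krt5 and relative to the surface epithelium list, and 3, all lower, by the unadjusted exact permutation test. Without both replicates 2 and 4 of VAD WT it was 6, all lower, as were 81.8% of all genes. Relative to the conjunctiva list (chosen after seeing the data) it was also 6, but all higher, as were 73.8% of all genes. Leaving out each library gave 0 to 4, with 0 without replicate 5 of VAS WT or replicate 3 of VAD WT and 4 without replicate 2 or 4 of VAD WT. By genotype on VAS the count of 3 became 5 without both replicates, relative to Krt5 and relative to the conjunctiva list. It became 6 with the 2 groups alone and relative to the surface epithelium list, and 7 by the exact test. Among these, Lor was lower without both replicates and relative to the surface epithelium list. Lor and Evpl were lower with the 2 groups alone and by the exact test, and the other called genes were higher. By genotype on VAD the count of 9 became 5 relative to Krt5.

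Of 1612 values of single genes under an alternative, 37 changed sign, 13 lost a call and 50 gained one. By diet in WT, the log2 fold change without both replicates was 0.34 for Evpl and 0.026 for Tgm1. Over the libraries left out in turn it ranged from -0.25 to 0.055 for Evpl, -0.077 to 0.57 for Ivl, -0.11 to 0.21 for Lor and -0.061 to 0.22 for Ppl. The log2 ratio difference by diet in WT changed sign relative to the conjunctiva list (Evpl 0.96, Ivl 1.315, Lor 1.11, Ppl 1.14, Sprr1a 0.59, Tgm1 1.01), the surface epithelium list (Ivl 0.25, Lor 0.049, Ppl 0.083) and Krt5 (Ivl 0.074). By genotype on VAS it changed sign for Evpl relative to Krt5 (0.027), the other cornea genes (0.18) and the conjunctiva list (0.69), and for Ivl, whose main value was 0.00 after rounding, with a pseudocount of 0.5 (0.00074), relative to Krt5 (0.29), the surface epithelium list (0.070), the other cornea genes (0.44) and the conjunctiva list (0.95), and over the libraries left out (-0.17 to 0.12). The cause of these changes was not tested beyond the libraries and references named.

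No sign was found that the replicate numbers mark shared mice or batches, though weak correlations cannot exclude it. Of 30 correlations between same-numbered samples, 0 were over 0.1 (-0.0686 to 0.0654), and 9 were the best of their sample. With the replicate block the counts were 0 by diet in WT, 7 by diet in Stra6-/-, 5 by genotype on VAS and 6 by genotype on VAD, and relative to Krt12 1, 7, 4 and 9.

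Depth limits Tgm3, and Sprr1b outside VAS Stra6-/-, to a few reads. No single-gene alternatives are given for these, nor for ratios against the nearly lost Krt12.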

Other observations

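The envelope scaffold genes Evpl and Ppl, which encode partner proteins, did not keep a fixed ratio. The ratio of their normalized values was 1.25 ± 0.0335 (SD, n = 5) in VAS WT, 1.10 ± 0.0637 in VAD WT, 0.941 ± 0.0336 in VAS Stra6-/- and 1.02 ± 0.0346 in the libraries labelled VAD Stra6-/-. The log2 ratio was lower by diet in WT (-0.18) and by genotype on VAS (-0.41), each at the smallest two-sided exact permutation p of 0.00794. It was higher by diet in the libraries labelled Stra6-/- (0.11, exact permutation p = 0.0159) and lower by genotype on VAD (-0.12, exact permutation p = 0.0317). Within VAD WT the ratio was lowest in replicates 2 and 4, the libraries with the least Evpl in that group. The comparison was chosen after the values were seen.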
